A study of Mus musculus with 18 samples.

Results

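Ear2, Rnase2a, Rnase2b, Ang, Ang2 and Rnase4 are 6 genes of the ribonuclease A family on mouse chromosome 14. They were taken by symbol from a count table of 48794 genes, after matching its Ensembl identifiers to GENCODE M21, and all 6 were present. They were chosen with their levels in these libraries known, so their own levels and fold differences are given as a description, without a test. The RNA came from macrophages that were grown in culture from marrow of male C57BL/6 mice, for 7 days in M-CSF at 50 ng/ml, the growth factor of this lineage, and then for 24 h in M-CSF at 10 ng/ml. Control cultures had M-CSF alone in those 24 h, IL4_IL13 cultures also had IL-4 and IL-13 (10 ng/ml of each), and IL4_IL13_TNFa cultures had all 3 cytokines at that dose. There were 6 numbered libraries per group, holding 14793404 to 20056125 counts each. Whether they stem from separate mice or cultures is not stated, so the p-values below measure the spread between libraries, which may be technical.

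The ribonuclease A family is a group of small secreted enzymes that cut RNA, with gene clusters that have expanded in rodents. Ear2, Rnase2a and Rnase2b belong to the eosinophil-associated ribonucleases, which are known from eosinophil granules and from macrophages in type 2 inflammation, where IL-4 and IL-13 act. Ang encodes angiogenin, which promotes blood vessel growth and cuts tRNA in stressed cells, Ang2 is a close relative of it, and Rnase4 encodes a ribonuclease that prefers to cut after uridine. Ang and Rnase4 are known to lie nested, with shared upstream exons that are spliced to separate coding exons.

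On GRCm38, 5 of the genes lay within a short stretch of chromosome 14. Rnase4 spans chr14:51091077-51106151 on the plus strand and Ang spans chr14:51091150-51102009 on the same strand, inside it. Rnase2b spans chr14:51162260-51163018 (plus strand), Ang2 chr14:51195324-51199148 (minus strand) and Rnase2a chr14:51255262-51256112 (minus strand). Ear2 lies apart from them, at chr14:44102654-44103534 (plus strand). Ang and Rnase4 share 219 bases of exon, out of an exon length of 1202 bases for Ang and 1637 for Rnase4, and no other pair of the 6 overlaps.

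The 250 bases before each RefSeq start (GRCm38.p6) are shown as a description of sequence. Whether they bear on the levels described below was not tested. Sequences run 5′ to 3′ in the direction of the gene. In the sequences of Ear2, Rnase2a, Rnase2b and their relative Ear1, capitals mark runs of 12 or more bases unchanged in Ear2, Rnase2a and Rnase2b. In the sequence shared by Ang and Rnase4, capitals mark matches to the frame of an NF-kB site, GGG and CC with any 5 bases between them.
Ear2, chr14:44102404-44102653, plus strand: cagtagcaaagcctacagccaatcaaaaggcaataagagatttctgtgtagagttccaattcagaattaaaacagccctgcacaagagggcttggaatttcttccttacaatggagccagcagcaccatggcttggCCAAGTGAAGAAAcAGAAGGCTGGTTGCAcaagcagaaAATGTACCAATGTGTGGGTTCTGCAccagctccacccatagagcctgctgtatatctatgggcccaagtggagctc
Rnase2a, chr14:51256113-51256362, minus strand: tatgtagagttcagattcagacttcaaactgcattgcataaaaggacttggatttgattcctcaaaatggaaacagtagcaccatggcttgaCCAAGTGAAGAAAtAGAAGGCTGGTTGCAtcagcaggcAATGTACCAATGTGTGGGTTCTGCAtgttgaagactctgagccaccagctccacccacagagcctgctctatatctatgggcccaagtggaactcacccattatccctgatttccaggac
Rnase2b, chr14:51162010-51162259, plus strand: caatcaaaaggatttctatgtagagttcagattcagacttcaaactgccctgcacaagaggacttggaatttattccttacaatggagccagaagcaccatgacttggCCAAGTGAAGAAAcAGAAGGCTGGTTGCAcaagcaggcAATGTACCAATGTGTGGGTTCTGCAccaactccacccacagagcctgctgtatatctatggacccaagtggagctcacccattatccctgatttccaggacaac
Ear1, chr14:43819640-43819889, minus strand: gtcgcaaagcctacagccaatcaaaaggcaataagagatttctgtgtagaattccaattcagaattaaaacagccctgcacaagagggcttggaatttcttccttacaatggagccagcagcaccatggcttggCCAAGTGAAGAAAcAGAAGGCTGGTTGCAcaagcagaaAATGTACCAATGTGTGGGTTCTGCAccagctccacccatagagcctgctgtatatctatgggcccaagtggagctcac
Ang and Rnase4, chr14:51090827-51091076, plus strand: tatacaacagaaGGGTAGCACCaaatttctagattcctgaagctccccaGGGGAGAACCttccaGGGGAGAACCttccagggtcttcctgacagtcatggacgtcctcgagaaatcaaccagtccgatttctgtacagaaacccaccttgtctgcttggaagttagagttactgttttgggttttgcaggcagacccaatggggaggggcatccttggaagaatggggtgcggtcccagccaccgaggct

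The upstream sequences of the 3 eosinophil-associated genes were close copies of each other. Ear2 and Rnase2b were identical at 93.2% of aligned bases, Rnase2a and Rnase2b at 91.3%, and Ear2 and Rnase2a at 86.4%. The closest match of Ear2 was Ear1, at 99.2%. The longest unchanged run, AATGTACCAATGTGTGGGTTCTGCA, begins 76 bases before the Ear2 start. Of 32851 mouse promoters in the RefSeq table, 4 held it, those of Ear1, Ear2, Rnase2a and Rnase2b. The run CCAAGTGAAGAAA was held by 6 promoters, adding Ear6 and Ear10, and AGAAGGCTGGTTGCA by 5, adding Ear10.

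Ang and Rnase4 have the same first RefSeq start, so their 250 bases are 1 sequence. It held 3 matches to the NF-kB frame, at 238, 201 and 186 bases before the start, 2 of them the repeated GGGGAGAACC. A second Rnase4 promoter, at chr14:51095750-51095999, held 1 match on the minus strand, 53 bases before its start. Matches to these letters are common, being present on either strand in 45.8% of all promoters. Another 5 motifs were searched on both strands: the STAT6 site (TTC and GAA with 4 bases between; in 5.85% of promoters), TGANTCA (AP-1; 6.75%), GAGGAAGT (PU.1; 2.44%), TTGCNNCAA (C/EBP; 1.74%) and TATAAA (the TATA box; 12.4%). None of these 5 strings, nor the NF-kB frame, lay within the 250 bases of Ear2, Rnase2a or Rnase2b, and none of the 5 lay within those of Ang and Rnase4. A match or its absence describes these letters in this window only.

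Because the genes are near copies, reads can be split between them, and how the counting treated reads with several matches is not given in the sources used here. The coding sequence of Ear2 was identical to that of Ear10 at 97.0% of aligned bases and to that of Ear1 at 95.7%. Among the 6 genes, Ang and Ang2 were the closest pair, at 88.1%, followed by Rnase2a and Rnase2b at 83.7%, Ear2 and Rnase2a at 80.2%, and Ear2 and Rnase2b at 78.7%. Ang and Rnase4, which share a start, were identical at 61.7% of coding bases. The concern is thus concentrated in Ear2. Of its 670 windows of 50 bases, 278 (41.5%) occurred unchanged in a transcript of a gene elsewhere, most often Ear10. The share of Ear2 was 23.4% for windows of 75 bases and 13.9% for 100 bases. For Rnase2a, Rnase2b and Rnase4 it was 0% at every length, and for Ang and Ang2 it was 3.82% and 5.55% at 50 bases and 0% at 100 bases.

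**Figure D1:**
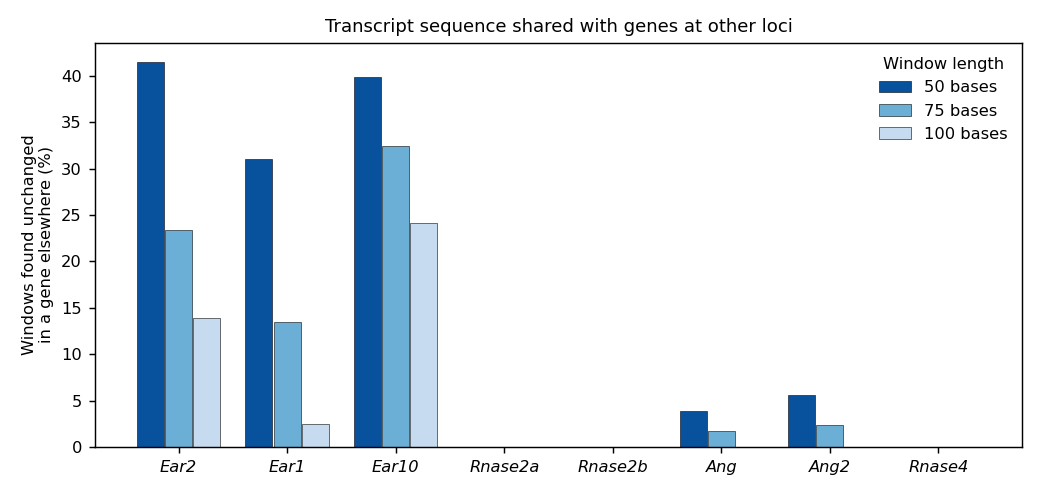
Share of transcript windows found unchanged in a gene at another locus (y axis, %), for the 6 genes and the 2 closest relatives of Ear2 (x axis), with bars for windows of 50, 75 and 100 bases. Ear2, Ear1 and Ear10 share long stretches, while Rnase2a, Rnase2b and Rnase4 stand at 0% at every length.

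The relatives that share most sequence with Ear2 had almost no counts. Ear1 was at 0 in all 18 libraries, which allows a mean of up to 0.0285 CPM (the gene's count scaled to a common library size by TMM) in IL4_IL13, taking 3 counts over the 6 libraries as the limit. Ear10 had 3 counts in IL4_IL13 and 0 in the other groups. Ear2 had 7088 counts in the same IL4_IL13 libraries. The upstream sequence of Ear1 was 99.2% identical to that of Ear2, and the part of upstream sequence in these levels was not tested. Reads from Ear1 or Ear10 that match Ear2 equally well could have been dropped or counted for Ear2, so the level of Ear2 is uncertain in that respect. Intervals and limits of this kind cover counting error only.

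Across the 3 conditions the 6 genes followed different courses. In Control, Rnase4 and Ang were the expressed members, and the other 4 were at or near 0. With IL-4 and IL-13 all 6 were higher in every library than in any control. With TNFa added, Rnase4 and Ang were below their Control level, Ear2 and Rnase2b kept a small part of their IL4_IL13 level, and Rnase2a stayed high. In such bulk libraries fewer expressing cells and less RNA per cell cannot be told apart. All 6 passed the filter on low counts. Ear2, Rnase2a, Rnase2b and Ang2 had at most 4 counts over the 6 controls and passed through the other groups, so a difference from Control was built into their passing.

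**Figure D2:**
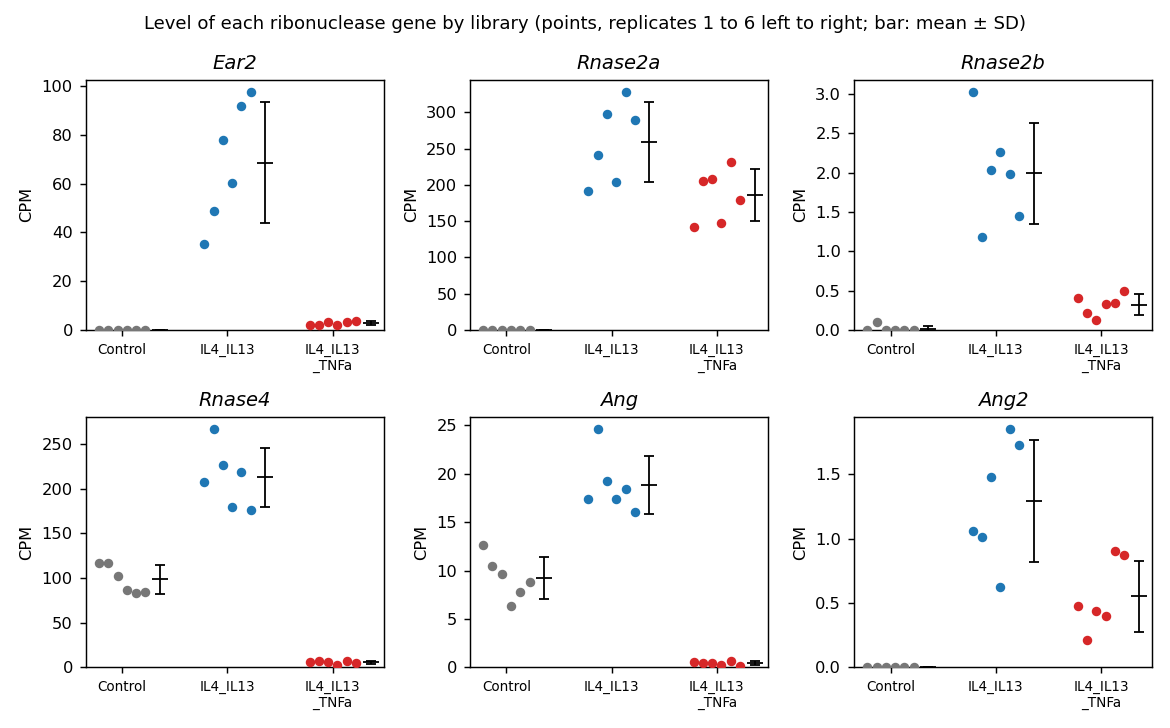
Level of each gene (y axis, CPM, linear from 0, own scale per panel) by group (x axis); points are libraries in order of replicate number, and the bar is the mean ± SD (n = 6). In IL4_IL13 every point of every gene lies above every Control point, and in IL4_IL13_TNFa Rnase2a and Ang2 are the panels whose points overlap those of IL4_IL13.

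Ear2, an eosinophil-associated ribonuclease, had 2 counts in all over the 6 controls, 1 each in replicates 4 and 5. In IL4_IL13 it stood at 35.4, 48.8, 78.0, 60.3, 91.6 and 97.7 CPM in replicates 1 to 6. In IL4_IL13_TNFa it stood at 2.26, 1.99, 3.40, 2.25, 3.27 and 3.63 CPM. The 3 groups did not overlap, and the lowest IL4_IL13 library was 9.77 times the highest with TNFa. The ratio of summed counts per scaled library size, IL4_IL13 over Control, was 3734, with an exact 95% counting interval from 1033 to 30840. The Ear2 mean was 68.6 ± 24.6 CPM in IL4_IL13 and 2.80 ± 0.71 with TNFa (SD, n = 6 each), 24.5-fold lower (log2 -4.61 ± 0.25, approximate SE). It was still 156.4 times the Control level (42.85 to 1298). With 2 control counts, these ratios turn on single libraries: without Control replicate 4 they were 6309 and 264.2, and without Control replicate 5 they were 6232 and 260.1.

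Rnase2a, from the same subfamily and known as an attractant for macrophages, had the highest mean CPM of the 6 in both treated groups. It had 4 counts over the 6 controls. In IL4_IL13 it stood at 190.9, 241.6, 298.2, 203.6, 328.4 and 289.7 CPM in replicates 1 to 6, and in IL4_IL13_TNFa at 141.7, 205.2, 207.6, 148.0, 231.7 and 179.8 CPM. These groups overlapped: 3 of the TNFa libraries lay above the lowest IL4_IL13 library. Rnase2a was nevertheless lower with TNFa in 6 of 6 pairs of same-numbered libraries. Its mean was 258.7 ± 55.3 CPM in IL4_IL13 and 185.7 ± 35.7 with TNFa, a 1.39-fold difference (log2 -0.48 ± 0.14). Against Control, the ratio of summed counts for Rnase2a was 7065 in IL4_IL13 (2759 to 25930) and 5140 in IL4_IL13_TNFa (2007 to 18870). Without Control replicate 5, which held 2 of the 4 control counts, they were 11790 and 8548.

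Rnase2b, the near neighbour of Rnase2a in sequence, followed the same order at a far lower level. It had 2 counts in Control, both in replicate 2. Its IL4_IL13 libraries held 63, 20, 33, 40, 30 and 27 counts, or 3.03, 1.19, 2.03, 2.26, 1.98 and 1.46 CPM. With TNFa they held 6, 3, 2, 5, 5 and 8 counts, so each of those values carries a wide counting error. The groups did not overlap. The Rnase2b mean was 1.99 ± 0.646 CPM in IL4_IL13 and 0.321 ± 0.135 with TNFa, 6.20-fold lower (log2 -2.61 ± 0.34). Against Control the ratio was 112.2 in IL4_IL13 (30.69 to 932.6) and 17.85 with TNFa (4.517 to 154.4). Without Control replicate 2 no control count remained, and against the limit of 3 counts Rnase2b was at least 60.8-fold and 9.67-fold higher.

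The 3 eosinophil-associated genes therefore differed in how much of the IL4_IL13 level was left with TNFa. Rnase2a kept a ratio of 0.718 of its mean CPM, Rnase2b 0.161 and Ear2 0.0408. In counts, Rnase2a exceeded Ear2 by 2.97 to 5.39 times in the IL4_IL13 libraries and by 49.6 to 103 times in the IL4_IL13_TNFa libraries, with no overlap. Rnase2a exceeded Rnase2b by 63.0 to 203.4 times in IL4_IL13 and by 345 to 1648 times with TNFa. The upstream sequences of these genes, shown above, are 86.4% to 93.2% identical, and their part in these ratios was not tested.

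Rnase4 was the most abundant of the 6 in Control. It stood at 116.7, 117.0, 102.3, 86.4, 83.3 and 84.9 CPM in Control replicates 1 to 6 and at 207.5, 267.0, 226.2, 179.6, 218.9 and 176.5 CPM in IL4_IL13. With TNFa it stood at 5.89, 7.61, 6.24, 2.71, 6.96 and 4.38 CPM. The groups did not overlap, and the TNFa libraries lay below all controls. The Rnase4 mean was 98.4 ± 15.8 CPM in Control and 212.6 ± 33.5 in IL4_IL13, 2.16-fold higher (log2 1.11 ± 0.16). With TNFa it was 5.63 ± 1.80 CPM, 37.8-fold lower than in IL4_IL13 (log2 -5.24 ± 0.19) and 17.5-fold lower than in Control (log2 -4.13 ± 0.19).

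Ang, which codes for angiogenin, followed the same order as Rnase4. Its Control libraries stood at 12.6, 10.4, 9.65, 6.32, 7.83 and 8.78 CPM in replicates 1 to 6, and its IL4_IL13 libraries at 17.4, 24.6, 19.2, 17.4, 18.4 and 16.0 CPM. With TNFa it had 8, 7, 7, 3, 10 and 3 counts, or 0.188 to 0.696 CPM. The groups did not overlap here either. The Ang mean was 9.27 ± 2.18 CPM in Control, 18.9 ± 3.04 in IL4_IL13 (log2 1.02 ± 0.16) and 0.428 ± 0.201 with TNFa. The last value was 44.0-fold lower than in IL4_IL13 (log2 -5.45 ± 0.23) and 21.7-fold lower than in Control (log2 -4.43 ± 0.24).

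The ratio of Rnase4 to Ang counts changed little between Control and IL4_IL13. It ranged from 9.26 to 13.7 in the Control libraries and from 10.3 to 11.9 in IL4_IL13. In IL4_IL13_TNFa it ranged from 10.0 to 23.3, where Ang rests on 3 to 10 counts per library. Over the 18 libraries the log2 CPM of the pair correlated at a Pearson r of 0.996, a description over libraries that share treatment, depth and, for these genes, 219 bases of exon. Reads from those exons cannot be told apart by gene, and such windows of 50 bases made up 10.7% of those of Ang and 7.75% of those of Rnase4.

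**Figure D3:**
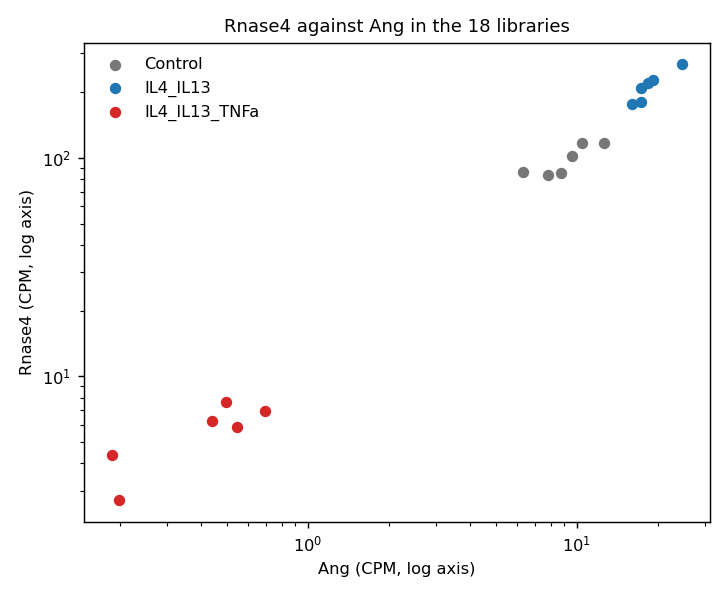
Rnase4 against Ang in each of the 18 libraries (both axes CPM, log scale), coloured by group. The points lie along a line, with the 6 IL4_IL13_TNFa libraries at the lower left (Rnase4 at 2.71 to 7.61 CPM), the Control libraries higher and the IL4_IL13 libraries highest.

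Ang2, the angiogenin relative, followed another order than Ang, with Control lowest. It had 0 counts in all 6 controls. Its IL4_IL13 libraries held 22, 17, 24, 11, 28 and 32 counts (0.622 to 1.85 CPM), and its IL4_IL13_TNFa libraries 7, 3, 7, 6, 13 and 14 counts (0.213 to 0.905 CPM). The treated groups overlapped, although Ang2 was lower with TNFa in 6 of 6 same-numbered pairs. Taking 3 counts over the 6 controls as the limit, the Ang2 mean was at least 47.1-fold higher in IL4_IL13 and at least 20.5-fold higher with TNFa than in Control. It was 1.29 ± 0.473 CPM in IL4_IL13 and 0.552 ± 0.278 with TNFa, 2.34-fold lower (log2 -1.20 ± 0.35). The ratio of Ang2 to Ang counts went from 0.0358 to 0.108 in the IL4_IL13 libraries to 0.429 to 4.67 with TNFa. Over the 18 libraries Ang2 correlated at 0.95 with Ear2, 0.928 with Rnase2a and 0.905 with Rnase2b, and at -0.0238 with Ang. Ear2 and Rnase2b correlated at 0.958 and Ear2 and Rnase2a at 0.879. Ang2, Ear2, Rnase2a and Rnase2b had few or no counts in Control and passed the filter through the treated groups, unlike Ang. High r among them was thus largely built in, and nothing is read from it.

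Read against the table as a whole, non-overlap was common. In IL4_IL13 against Control, 6 of the 6 genes were higher without overlap, beside 12.5% of the 13177 genes tested. In IL4_IL13_TNFa against IL4_IL13, 4 of 6 were lower without overlap, beside 21.6%. In IL4_IL13_TNFa against Control, 4 of 6 were higher, beside 26.1%, and 2 of 6 were lower, beside 25.1%. Since the genes were chosen on these libraries, nothing is read from the comparison with these shares. All 3 comparisons share groups, so their values are not independent of each other.

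Levels can be compared between the genes only per length, so CPM was divided by exon length in kb. The 6 genes summed to 67.9 ± 11.3 CPM per kb in Control, 620 ± 112.8 in IL4_IL13 and 277.8 ± 53.1 with TNFa (SD, n = 6). In Control, Rnase4 (60.1 CPM per kb) made up 88.6% of this sum and Ang (7.71) made up 11.3%. In IL4_IL13, the order of mean CPM per kb was Rnase2a (375), Rnase4 (129.9), Ear2 (95.4), Ang (15.7), Rnase2b (2.62) and Ang2 (1.44). Rnase4 and Ear2 overlapped in that order, at 107.8 to 163.1 and 49.3 to 135.8 CPM per kb, as did Rnase2b and Ang2. Rnase2a made up 60.2% of the sum in IL4_IL13, Rnase4 21.5% and Ear2 15.1%.

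With TNFa, Rnase2a (269.1 CPM per kb) made up 96.8% of the sum, from 96.1% to 97.4% in single libraries. Ear2 (3.89 CPM per kb) and Rnase4 (3.44) followed at 1.42% and 1.23% and overlapped between libraries. Ang2 (0.616), Rnase2b (0.424) and Ang (0.356) came last and overlapped with each other.

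**Figure D4:**
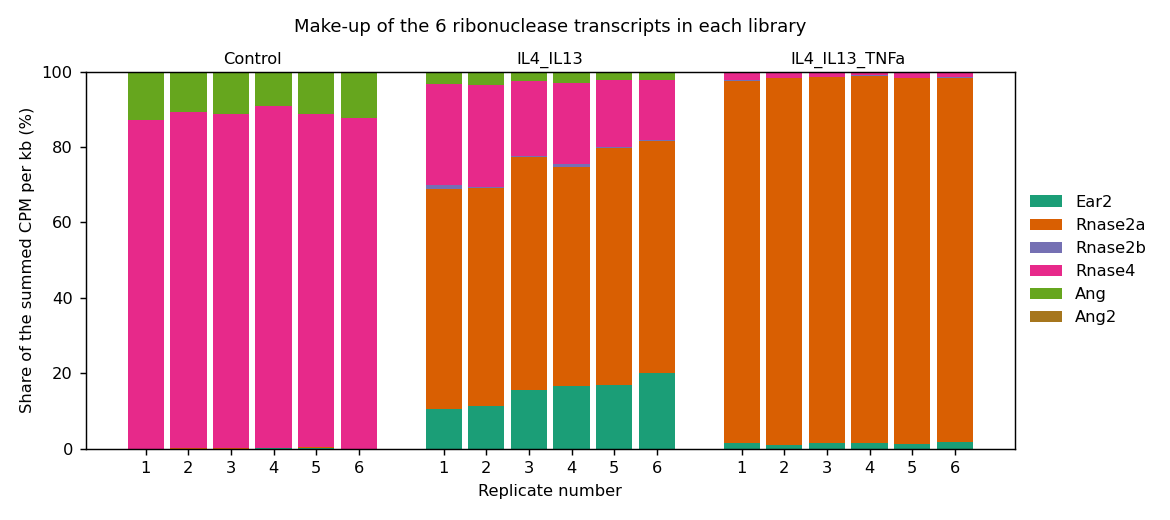
Share of each gene in the summed CPM per kb of the 6 genes (y axis, %) in each library (x axis, replicate number within group). Rnase4 fills most of each Control bar (88.6% on average), Rnase2a most of each IL4_IL13 bar (60.2%) and nearly all of each IL4_IL13_TNFa bar (96.8%).

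Of the 4 genes with the most counts in IL4_IL13 (Rnase2a, Rnase4, Ear2 and Ang), Ear2 varied most between the libraries of that group. Its values ranged from 35.4 to 97.7 CPM (a coefficient of variation of 35.8%), against 21.4% for Rnase2a, 16.1% for Ang and 15.7% for Rnase4. Ear2 was lowest in IL4_IL13 replicate 1 and highest in replicate 6. Rnase2a was lowest in replicate 1 too (190.9 CPM) but highest in replicate 5 (328.4 CPM), whereas Rnase4 and Ang were lowest in replicate 6. Summed CPM of 5 stromal marker genes (Col1a1, Col1a2, Col3a1, Dcn and Sparc) was also lowest in IL4_IL13 replicate 1 (54.8) and highest in replicate 6 (558.2). It was lowest in replicate 1 and highest in replicate 6 in Control (19.8 and 632.7) and with TNFa (56.0 and 360.5) too. With TNFa, Ear2 was lowest in replicate 2 and highest in replicate 6. Col1a1 gave the largest part of the sum, at means of 134.9, 114.8 and 72.9 CPM in Control, IL4_IL13 and IL4_IL13_TNFa. Dcn gave almost none of it, at 0.100, 0.0629 and 0.111 CPM. The part of stromal cells in the Ear2 values was not tested.

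In every group 8 of 8 macrophage genes were detected. Their summed CPM was 13940 to 24740 in Control, 8220 to 9990 in IL4_IL13 and 8826 to 9590 with TNFa, most of it from Lyz2 and Csf1r. Single markers differed by group. In Control, IL4_IL13 and IL4_IL13_TNFa, Fcgr1 averaged 130.4, 21.85 and 0.999 CPM, Mertk 123.8, 36.3 and 13.0, and Adgre1 2307, 1163 and 573.9. Lyz2, Csf1r and Itgam were lowest in IL4_IL13, while Cd68 was highest there and Spi1 was highest with TNFa. Eosinophils, the cells after which the Ear genes are named, were checked by 6 markers. Of the granule protein genes Epx and Prg3 were at 0 in all 18 libraries, and Prg2 had 1 or 2 counts per group. The summed CPM of the 6 was 6.50 to 11.9 in Control, 28.1 to 39.2 in IL4_IL13 and 57.8 to 65.1 with TNFa, nearly all of it from Siglecf (means of 1.23, 20.6 and 50.7 CPM) and Ccr3 (8.10, 11.6 and 10.2 CPM). The sum was highest with TNFa. Which cells the Ear2 RNA came from was not tested. Mast cell and basophil markers (6 genes, Fcer1a at 0 throughout) stayed at or below 3.04 CPM and neutrophil markers (7 genes, Ly6g at 0 throughout) at or below 2.81 CPM. The 5 dendritic cell markers summed to 1.26 to 3.47 CPM in Control, 2.72 to 5.55 in IL4_IL13 and 34.0 to 36.5 with TNFa, nearly all of the last from Zbtb46 (means of 0.709, 2.76 and 33.9 CPM). Means of Flt3 were 0.858, 0.541 and 0.290 CPM, and Xcr1 was at 0 with TNFa. Control replicate 1 stood apart, with 1836 genes over 2-fold from the other controls against at most 393 in any other library, and each comparison was repeated without it.

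Among the rest of the family on chromosome 14, Rnase6 was the only other gene tested. The table held 32 family genes there, pseudogenes included, and 7 passed the filter, the 6 above and Rnase6. Rnase6 encodes an antimicrobial ribonuclease known from monocytes and macrophages. In Control it ranged from 7.48 to 12.6 CPM around a median of 9.13, in IL4_IL13 from 33.0 to 59.3 around 48.2, and with TNFa from 27.2 to 36.3 around 30.8. Rnase6 rose in IL4_IL13 (log2 2.30 ± 0.15, edgeR adjusted p = 3.03e-10, higher in 6 of 6 pairs) and fell with TNFa added (log2 -0.60 ± 0.14, adjusted p = 0.00118, lower in 6 of 6 pairs, groups overlapping). It remained above Control with TNFa (log2 1.70 ± 0.15, adjusted p = 5.93e-09). Unless another setting is named, adjusted p-values come from the quasi-likelihood test of edgeR over 13177 genes. At 0.05, 59.0% of these were called in IL4_IL13 against Control (29.3% higher, 29.7% lower), 59.6% in IL4_IL13_TNFa against IL4_IL13 (30.3% higher, 29.3% lower) and 73.8% in IL4_IL13_TNFa against Control (36.4% higher, 37.3% lower).

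Of 15 further family genes listed, 14 were in the table and 4 had any count. Besides Rnase6 and Ear10, these were Rnase10 with 11 counts, all in IL4_IL13_TNFa, and Ang4 with 1 count. Ear1, Ear6, Ear14, Ang5, Ang6, Rnase1, Rnase9, Rnase11, Rnase12 and Rnase13 were at 0 in all 18 libraries.

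Of genes of proteins that bind these ribonucleases, 2 were listed. Both were called in IL4_IL13 against Control, where 59.0% of all genes tested were called. Rnh1, the cytosolic inhibitor that binds and blocks enzymes of this family, had a median of 253.4 CPM in Control and 413.6 in IL4_IL13 (range 370.7 to 435.0). Rnh1 rose in IL4_IL13 against Control (log2 0.59 ± 0.09, edgeR adjusted p = 1.24e-05, higher in 6 of 6 pairs, Control replicate 1 overlapping) and in IL4_IL13_TNFa against Control (0.55 ± 0.09, adjusted p = 1.26e-05). Between the treated groups it was not called (-0.04 ± 0.09, adjusted p = 0.712), but with scaling by library totals it was, at -0.25 (adjusted p = 0.0162). Plxnb2, a receptor for angiogenin, moved the other way. Its mean was 1293 CPM in Control, 709 in IL4_IL13 and 573.9 with TNFa, and the groups did not overlap. Plxnb2 fell in IL4_IL13 (log2 -0.87 ± 0.05, edgeR adjusted p = 6.85e-11) and again with TNFa added (-0.30 ± 0.05, adjusted p = 4.21e-05), lower in 6 of 6 pairs each time.

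**Figure D5:**
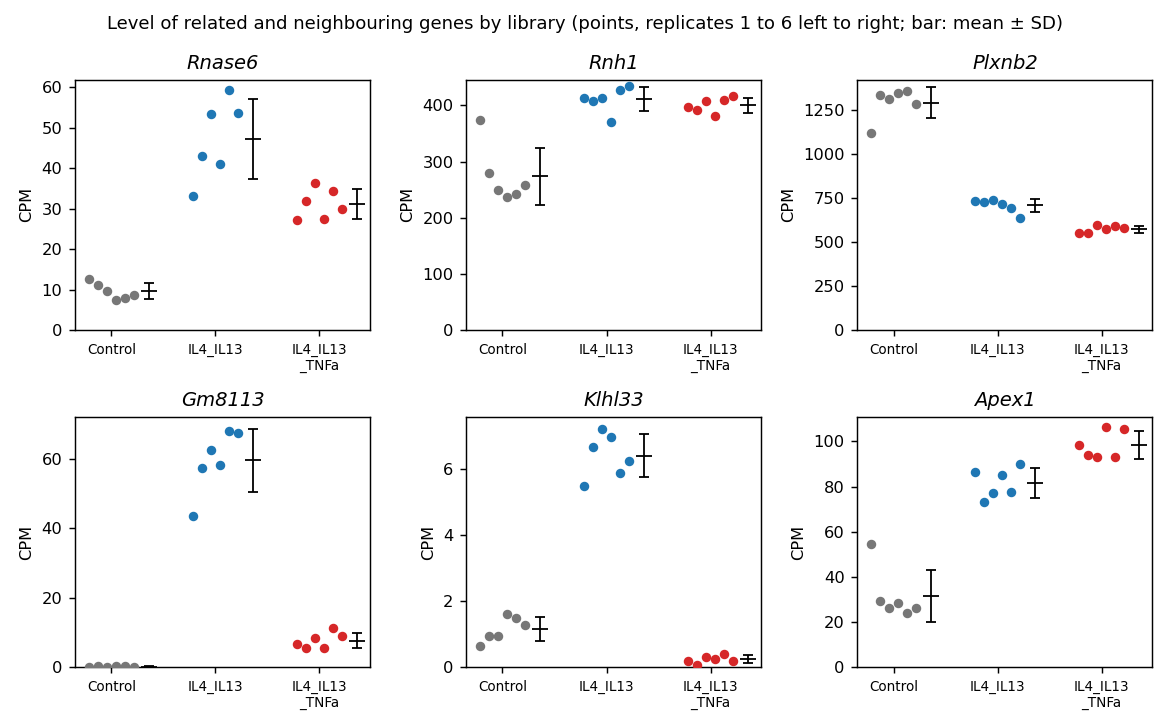
Level (y axis, CPM, linear from 0, own scale per panel) of Rnase6, Rnh1 and Plxnb2 and of the chromosome 14 neighbours Gm8113, Klhl33 and Apex1 by group (x axis); points are libraries in order of replicate number and the bar is the mean ± SD (n = 6). Gm8113 stands near 0 in Control, at 43.7 to 68.1 CPM in IL4_IL13 and at 5.55 to 11.3 CPM with TNFa.

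Other RNA-cutting enzymes did not share a direction. Of 12 listed endoribonucleases 10 were tested. In IL4_IL13, 2 rose and 3 fell (median log2 -0.15, against 0.00 over all genes), beside 29.3% and 29.7% of all genes tested. With TNFa added 4 rose and 3 fell (median 0.12), beside 30.3% and 29.3%. The largest fall among the 10 in both comparisons was that of Zc3h12d, a regulator of inflammatory mRNA decay. It fell by log2 -1.52 ± 0.11 (edgeR adjusted p = 1.09e-09) and -1.16 ± 0.11 (adjusted p = 5.56e-08). Its relative Zc3h12c rose with TNFa by log2 1.85 ± 0.11 (adjusted p = 2.19e-11). Of 10 secreted antimicrobial proteins 4 were tested, to be read beside the same shares of all genes. None rose in IL4_IL13 and 2 fell. These were the lysozyme genes Lyz2 (log2 -2.08 ± 0.14, adjusted p = 4.36e-10) and Lyz1, near copies whose reads may be split. With TNFa added, 1 rose (Slpi, log2 2.40 ± 0.67, adjusted p = 0.00437) and 1 fell (Wfdc17, -0.74 ± 0.24, adjusted p = 0.0122). Slpi had 17 counts over the 6 IL4_IL13 libraries, and without IL4_IL13 replicate 6 its log2 fold change was 3.16. The Wfdc17 call was lost with limma voom (adjusted p = 0.0565).

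Genes around the members, which lie at separate places on chromosome 14, were then examined. Of 74 genes in the table outside the family that start within 500 kb of a member, 12 were tested. In IL4_IL13, 5 of the 12 rose and 2 fell (median log2 0.09), beside 29.3% and 29.7% of all genes tested. With TNFa added 2 rose and 6 fell (median -0.44, against 0.00 over all genes), beside 30.3% and 29.3%. Gm8113, a predicted gene that starts 177.3 kb before Ear2, followed a course much like that of Ear2. It averaged 0.247 CPM in Control, 59.6 in IL4_IL13 and 7.72 with TNFa. Gm8113 rose in IL4_IL13 (log2 7.84 ± 0.26, edgeR adjusted p = 1.96e-14) and fell with TNFa added (-2.95 ± 0.17, adjusted p = 3.95e-11), without overlap between groups.

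Klhl33 starts 193.6 kb before Rnase4 and followed a course like that of Rnase4, up in IL4_IL13 and below Control with TNFa. It averaged 1.16 CPM in Control, 6.41 in IL4_IL13 and 0.244 with TNFa. Klhl33 rose in IL4_IL13 (log2 2.47 ± 0.20, edgeR adjusted p = 5.39e-09), fell with TNFa added (-4.67 ± 0.25, adjusted p = 1.05e-11) and was below Control in IL4_IL13_TNFa (-2.21 ± 0.28, adjusted p = 1.09e-06). Apex1, a DNA repair endonuclease gene, and Pnp2, a purine nucleoside phosphorylase gene, lie between Klhl33 and Rnase4 and did otherwise. Apex1 rose in IL4_IL13 (log2 1.37 ± 0.15, adjusted p = 5.05e-07) and was not called with TNFa added (0.27 ± 0.15, adjusted p = 0.122). Without Control replicate 1 that second difference was called (adjusted p = 0.000306). Pnp2, at about 1 CPM or less, fell in IL4_IL13 (log2 -1.02 ± 0.30, adjusted p = 0.00772) and rose with TNFa added (1.32 ± 0.30, adjusted p = 0.000981).

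The genes whose levels correlated most with each member over the 18 libraries were found by Pearson's r of log2 CPM among 10333 genes. This r compares the shape of a course, and not its level or the size of its changes. Ear2, Rnase2a, Rnase2b and Ang2 had few or no counts in Control and passed the filter through the treated groups. For them, high r with genes lowest in Control was thus largely built in, and nothing is read from its size. The most correlated genes were Socs6 (0.988), Retnla (0.988) and Gm8113 (0.987) for Ear2, and Tuba8, Hr and Mgl2 (0.995 each) for Rnase2a. Retnla averaged 0.0644 CPM in Control, 1102 in IL4_IL13 and 35.5 with TNFa, while Mgl2 averaged 0.243, 296.3 and 174.2 CPM. Socs6 changed far less than Ear2, with means of 43.25, 92.37 and 66.15 CPM in the same order of groups. The nearest genes to Rnase2b were P2ry1 (0.971), Cavin1 (0.964) and Fyn (0.959), and to Ang2 they were Hadha (0.978), Atp6v0a1 (0.966) and Retnla (0.966). Hadha stood far above Ang2 in level, at means of 144.5, 205.4 and 184.9 CPM in Control, IL4_IL13 and IL4_IL13_TNFa. Ang and Rnase4 had the same leading pair, Cdc25b (0.988 and 0.99) and Arhgap4 (0.985 and 0.987), followed by Fam83d for Ang (0.983) and Spn for Rnase4 (0.985). Cdc25b averaged 101.3 CPM in Control, 152.9 in IL4_IL13 and 11.2 with TNFa. By rank correlation other genes led: none of the 3 remained for Ear2, Rnase2a, Ang or Ang2, and 1 remained for Rnase2b and Rnase4. With a prior count of 0.5 in place of 2, 1 of the 3 (P2ry1) remained for Rnase2b. Il31ra took the place of Tuba8 for Rnase2a, and Oxct1 that of Retnla for Ang2.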

How the data were processed

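Poly(A) RNA of 18 libraries was sequenced with a directional kit (NEBNext Ultra II), per the labels' protocols. The deposited table holds raw counts per gene, as its whole-number values show. Tools named in the submitters' processing notes are STAR (2.5.2 and 2.5.2b), RSEM 1.3.0, featureCounts 1.5.1, FastQC 0.11.5 and bcl2fastq 2.20.0.422, with build GRCm38 (mm10). Not given in the sources used here are their roles, the annotation release, the strand setting and the handling of reads with several matches.

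Groups follow the titles. The 6 genes and all gene lists were chosen with earlier results of these data known. Named are the 6 members, relatives with a count, Rnh1 and Plxnb2, some of the 3 largest called changes per comparison in the endoribonuclease and antimicrobial lists, called neighbours past a log2 change of 1, and the 3 genes most like each member.

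Genes kept by filterByExpr of edgeR 4.0.16 (R 4.3.3, minimum count 10, TMM) were fitted over all 18 libraries with the robust quasi-likelihood model, with Benjamini-Hochberg adjustment and a threshold of 0.05. The approximate SE divides the size of the log2 fold change by the root of F. The fit was tested on simulated counts. Groups with at most 10 counts are given as ratios of summed counts with exact conditional 95% intervals. No library copied another (chi-square per degree of freedom at least 2.59 in 45 within-group pairs). Same-numbered libraries deviated together from their group means (r of 0.128 to 0.671 in 18 of 18 pairs), so the data pair them by number, for a reason the labels do not give.

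Coding sequences and windows came from GENCODE M21 and upstream sequences from RefSeq, matched by symbol for 5 of the 6 genes (all but Ang2). Identity is over global alignments (Biopython 1.88) of coding bases, in place of a planned protein comparison. Alternatives were size factors and test of DESeq2 1.42.0, library totals, voom of limma 3.58.1, no filter or a stricter one (CPM of 5 in 6 libraries), a replicate block, only the libraries compared, and left-out libraries. Exon length outside the exons shared by Ang and Rnase4 was added after seeing the data.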

Additional observations from a re-analysis of the deposited data

Results flagged for a closer look

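In 3 groups of 6 libraries 1 library lay far from the others for its range, out of 23 groups of member and related-gene levels checked; chance gives about 1 in 20. Ang stood at 24.6 CPM in IL4_IL13 replicate 2, against 16.0 to 19.2 in the other 5. Rnh1 stood at 373.7 CPM in Control replicate 1, where the other controls ranged from 237.7 to 280.0. Plxnb2 stood at 1119 CPM in Control replicate 1, against 1285 to 1358. Control replicate 1 is the library with the most genes over 2-fold from its group. Without it, Rnh1 and Plxnb2 kept their direction and call in IL4_IL13 against Control.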

How the results depend on the processing

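The 10 log2 fold changes of members kept their direction, without a large move, under every scaling, filter, test and left-out library tried, except that the stricter filter removed Rnase2b and Ang2. From IL4_IL13 to IL4_IL13_TNFa they ranged from -4.81 to -4.48 for Ear2, -0.68 to -0.40 for Rnase2a, -2.81 to -2.44 for Rnase2b, -5.66 to -5.29 for Ang, -1.40 to -1.04 for Ang2 and -5.45 to -5.10 for Rnase4. With the replicate block, Ear2 stood at -4.59 and Rnase2a at -0.47, and the block changed no call of a gene named in the report. Over its unshared exon length, Ang stood at 19.2 CPM per kb in IL4_IL13.

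Some list counts moved. With library totals, 2 of the inhibitor and receptor pair were called in IL4_IL13_TNFa against IL4_IL13. With the replicate block, 8 of 12 neighbours were called in IL4_IL13 against Control, where 7 were called otherwise. The block gave 10 in place of 8 in IL4_IL13_TNFa against IL4_IL13, and 9 in place of 8 in IL4_IL13_TNFa against Control. With 1 library left out, 4 to 6 endoribonucleases and 2 to 3 antimicrobial genes were called in IL4_IL13 against Control. With no filter, 2 genes of the list of other family members were called in each comparison with TNFa, where 1 (Rnase6) was called otherwise. Of the antimicrobial genes, the stricter filter left 1 called in IL4_IL13 against Control, 1 in IL4_IL13_TNFa against IL4_IL13 and 2 in IL4_IL13_TNFa against Control. In IL4_IL13_TNFa against IL4_IL13, 1 antimicrobial gene was called with voom, with only the libraries compared, and without the 3 libraries numbered 1. The stricter filter tests fewer genes; the cause was not tested for the other settings. Apex1 with TNFa added was called with only the libraries compared (log2 0.26), without Control replicate 1 (0.27) and without the 3 libraries numbered 1 (0.29).

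Depth limits Rnase2b, Ang2 and, with TNFa, Ang, which rest on at most 63, 32 and 10 counts per library. Ratios to Control of Ear2, Rnase2a and Rnase2b move by over 1.5 times with 1 control library left out, as given beside them. The 3 genes most like a member depend on the measure and, for Rnase2a, Rnase2b and Ang2, on the prior count.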
